A study of Mus musculus with 2 samples.

Results

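Solute carriers are the membrane proteins that move amino acids, ions, sugars, nucleotides and vitamins across the plasma membrane and the membranes of organelles, and their genes carry the stem Slc. The members described here are the genes of a mouse oligonucleotide array whose annotated symbol is Slc followed by a digit, 105 of 5928 annotated genes, read by 130 probe sets. A probe set is a group of probes for 1 transcript, summarised by the authors into 1 intensity. The arrays carried RNA from clone D351 and clone D16, each on 1 array, the C array of the murine U74 set. Both clones are mouse mesoangioblasts, vessel-associated progenitor cells, grown from the dorsal aorta of C57BL6 embryos at embryonic day 9.5. They were isolated by limiting dilution over fibroblast feeder cells treated with Mitomycin C and later expanded on gelatin, so each line is 1 clone and no clone has a second culture here. With 1 array per clone no difference below has a replicate check, no test was made, and the precision is limited by the number of arrays.

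Carriers of the Slc families use existing gradients or exchange 1 solute for another, whereas pumps spend ATP directly. Cells that divide rely on them for glutamine, essential amino acids, thiamine, zinc and nucleotide precursors. Members of the Slc25 family sit in the inner mitochondrial membrane and pass metabolites between the matrix and the cytosol, and Slc35 members carry activated sugars into the Golgi apparatus and endoplasmic reticulum for glycan synthesis.

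Intensities were used as deposited. A value at or below 6.4, the median of all probe sets of both arrays, is called dim, and a gene was measured when it was above that floor in at least 1 clone. Each gene is given by the probe set with its highest mean. Ratios are log2 of D351 minus log2 of D16 with dim values raised to the floor, so a gene that is dim in 1 clone has a lower bound, written "at least". As a guide to background, the 19 probe sets for bacterial and yeast transcripts had a highest value of 11.2 over both arrays. The 9 spiked hybridization controls were brighter in D16 (median log2 ratio -0.67), so every direction below is relative to the whole array and not to the amount of RNA. As a guide to RNA quality, the 3' to 5' ratio of control probe sets was 1.22 in D351 and 1.39 in D16 for Gapdh, and 1.24 in D351 and 1.49 in D16 for Actb. Fewer cells of a type and less RNA per cell cannot be told apart in such RNA. Of 15 genes listed as markers of mesoangioblasts only Kdr and Itgb1 were on the array, and Kdr, the VEGF receptor of the endothelial lineage, read 9.5 in D351, within the negative controls, and was dim in D16. Itgb1, an integrin chain, read 131.4 in D351 and 124 in D16. Markers of embryonic fibroblasts, the feeder cell type, were higher in D351, with a summed intensity of 2355 in D351 and 653.8 in D16 over the 4 of 12 on the array, and none of the 4 was dim. Smooth muscle markers summed to 412.9 in D351 and 33.9 in D16 over 4 of 10, among which Myocd was dim in both clones. Endothelial markers summed to 100.9 in D351 and 22.4 in D16 over 3 of 10 and disagreed, with Flt1 at 87.6 in D351 and dim in D16 and Egfl7 dim in D351 and at 19.5 in D16. Of 5 neural markers Nes and Gfap were on the array and dim in both clones. Markers of other lineages were readable. Itga2b, a blood marker, read 49.9 in D351 and 38.7 in D16. Epcam, an epithelial marker, read 52.1 in D351 and 37.9 in D16. Upk1b, also epithelial, read 16.2 in D351 and was dim in D16. Pvalb, a skeletal muscle marker, read 277.3 in D351 and 98.2 in D16. Ckm, also of skeletal muscle, lay the other way at 15.1 in D351 and 27.8 in D16. The part of these cell type markers in the differences below was not tested.

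All but 9 of the measured solute carriers gave a ratio, or a lower bound of it, under 2-fold between the clones, and each of those 9 had a low value in at least 1 clone. Of the 105 genes, 65 were measured (61.9%), against 3934 of all 5928 (66.4%), and 48 were above the floor in both clones. Of the 65, 4 were at least 2-fold higher in D351, where the share over all measured genes was 10.3%, and 5 were at least 2-fold higher in D16, where it was 10.2%. Together 9 of 65 passed 2-fold (13.8%), against 20.5% of all measured genes. Over the 48 Slc genes above the floor in both clones, 4 passed 2-fold (8.33%), against 17.8% of all such genes. The orphan carrier Slc35f1 and the urea transporter Slc14a1 stood furthest towards D16. Slc6a17, a neutral amino acid carrier, and Slc39a4, a zinc importer, stood furthest towards D351.

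Among the 65, 27 log2 ratios were above 0 and 38 below, with a median of -0.11 and a range of -4.16 to 1.88. The median over all measured genes was -0.02. After scaling the arrays to the hybridization controls the Slc median was 0.53, against 0.60 for all measured genes. The counts past 2-fold became 17 towards D351 and 2 towards D16, against 1124 and 142 genes in all. Together these were 29.7% of the measured Slc genes, against 32.1% of all measured genes. In every one of the 9 genes past 2-fold the lower value did not exceed the highest negative control, and 5 of the 9 are lower bounds. Where both clones were above 20.7, the 75th percentile of all values, 24 Slc genes remained and 0 of them passed 2-fold, with log2 ratios from -0.86 to 0.96. Of all 1722 genes above that value in both clones, 246 passed 2-fold (14.3%).

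**Figure D1:**
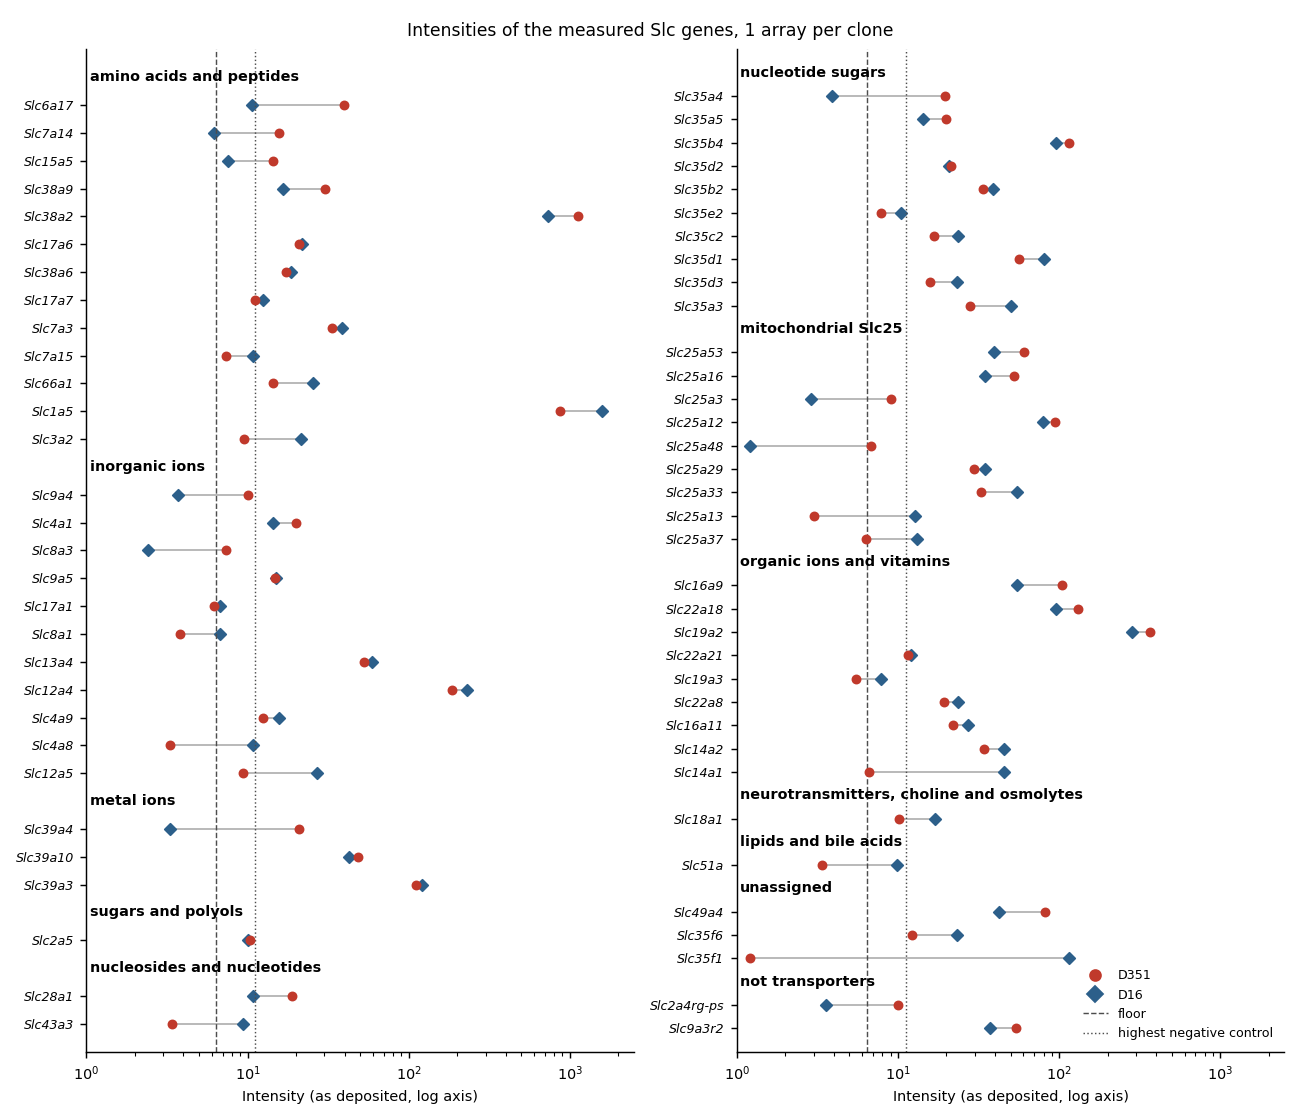
Deposited intensities of the 65 measured Slc genes on a log axis, D351 as red circles and D16 as blue diamonds, grouped by transported substrate, 1 array per clone. The dashed line is the floor of 6.4 and the dotted line the highest negative control, 11.2; the long connectors, such as that of Slc35f1 (1.2 in D351 and 114.8 in D16), all reach to the left of the dotted line.

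**Figure D2:**
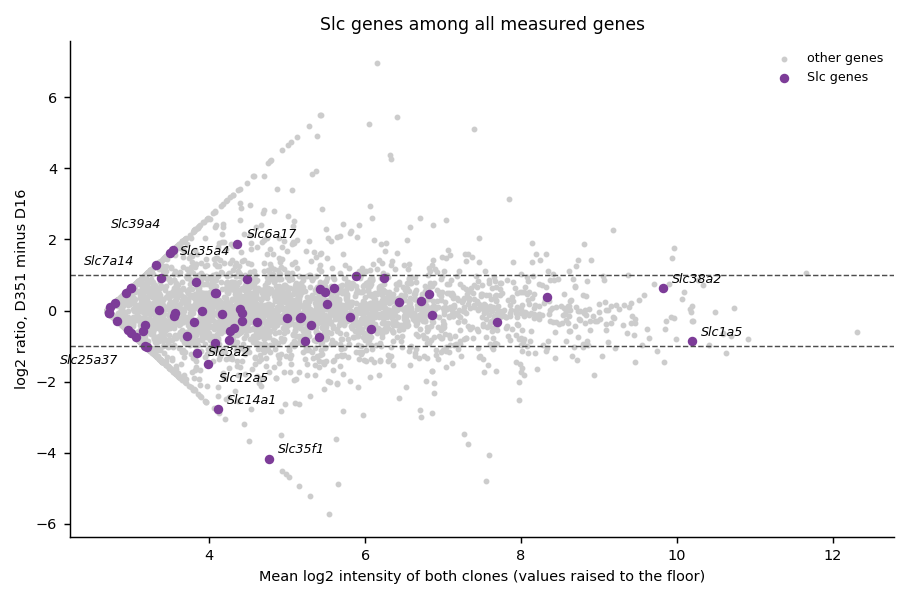
The log2 ratio (D351 minus D16) of each measured gene against its mean log2 intensity, with the 65 Slc genes in purple, the other genes in grey and dashed lines at 2-fold. The 9 named Slc genes lie beyond the lines, and Slc38a2 and Slc1a5, at the bright end, lie within them.

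Amino acid and peptide carriers were the largest class, with 13 of 21 genes measured. In this class 2 genes passed 2-fold towards D351 and 1 towards D16, together 23.1%, against 20.5% of all measured genes. The median log2 ratio was -0.11, but it was 0.59 with the scaling to the hybridization controls and 0.62 over the 9 genes with unmarked probe sets. Slc1a5, the exchanger that brings glutamine into dividing cells, had an intensity of 867.5 in D351 and 1579.7 in D16. It was 1.82-fold lower in D351, and its second probe set, at 58.2 in D351 and 102 in D16, gave nearly the same log2 ratio (-0.81, against -0.86). Both probe sets carry a mark in their identifier (f, g, i, r, s or x), which denotes relaxed probe choice or sequence shared between transcripts. Of the 65 measured Slc genes, 28 were read by a marked probe set, as were 3 of the 9 past 2-fold and 1576 of all 3934 measured genes. Slc38a2, which takes up small neutral amino acids together with sodium, lay the other way at 1120.6 in D351 and 727.4 in D16, 1.54-fold higher in D351. Both remained under 2-fold. Slc3a2, the heavy chain that holds several Slc7 amino acid exchangers at the cell surface, read 9.5 in D351 and 21.6 in D16, which is 2.27-fold lower in D351. The D351 value is within the range of the negative controls. The floor of 20.7 left a bound of 1.04-fold, and the log2 ratio of -1.19 was -0.49 with the scaling to the hybridization controls and -0.82 with a pseudocount, so the gene passed 2-fold in 6 of 9 other settings. Slc7a6, a light chain that pairs with it, was dim in both clones.

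Slc6a17, known from synaptic vesicles as a carrier of neutral amino acids, stood at 39.4 in D351 and 10.7 in D16. It was 3.68-fold higher in D351, and raising the floor to 20.7 left a bound of 1.90-fold. Slc7a14, of the cationic amino acid transporter family and known from brain and retina, read 15.6 in D351 and was dim at 6.2 in D16, at least 2.44-fold higher in D351. With the floor at 20.7 it was dim in both clones. Slc7a3, a cationic amino acid transporter, was close to even with 33.4 in D351 and 38.6 in D16, and its other 2 probe sets were dim in both clones.

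Amino acid carriers of the lysosome were measured too. Slc38a9, the arginine sensor that feeds the kinase complex mTORC1, read 30.4 in D351 and 16.5 in D16 by 1 probe set. Another read 15.8 in D351 and 16.9 in D16, so its probe sets differ in direction. Slc66a1, which exports cationic amino acids from lysosomes, had an intensity of 14.3 in D351 and 25.3 in D16, 1.77-fold lower in D351. Slc15a5, of the peptide transporter family, lay at 14.3 in D351 and 7.6 in D16. The vesicular glutamate transporters Slc17a6 (20.9 in D351 and 21.7 in D16) and Slc17a7 (11.1 in D351 and 12.4 in D16) were nearly even, each by 1 probe set while another was dim in both clones. Slc38a6, at 17.2 in D351 and 18.5 in D16, and Slc7a15, at 7.3 in D351 and 10.8 in D16, completed the 13. The other 8 of the class were dim in both clones, namely the glial glutamate transporter Slc1a2, the kidney heavy chain Slc3a1, Slc6a14, Slc6a18, Slc6a20a, Slc7a6, Slc36a3 and Slc36a4.

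Of 18 carriers of inorganic ions 11 were measured, with 3 log2 ratios above 0, 8 below and a median of -0.07, or 0.45 with the scaling to the hybridization controls. The share past 2-fold was 9.09%, against 20.5% of all measured genes. Only Slc12a5, the potassium and chloride cotransporter of neurons, passed 2-fold, at 9.4 in D351 and 26.8 in D16. It was 2.85-fold lower in D351, and its D351 value is again within the negative controls. It no longer passed 2-fold with the floor at 20.7, where the bound was 1.29-fold, or with the scaling to the hybridization controls, where the log2 ratio was -0.82. Its relative Slc12a4, the cotransporter found in most tissues for cell volume control, read 184.7 in D351 and 230.4 in D16, a log2 ratio of -0.32. Slc13a4, a sodium and sulfate cotransporter, was at 52.8 in D351 and 59.5 in D16 by a marked probe set, while another was dim in both clones. These are differences of 1.25-fold and 1.13-fold.

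Exchangers of bicarbonate, sodium and calcium all read below 20.7, the 75th percentile. Slc4a1, the anion exchanger of red blood cells, read 20.1 in D351 and 14.3 in D16. Slc4a8, which brings in bicarbonate with sodium, was dim in D351 and at 10.8 in D16, and Slc4a9 read 12.4 in D351 and 15.6 in D16. Another probe set of Slc4a9 was dim in both clones. Slc9a5, a sodium and proton exchanger, was even at 14.9 in D351 and 15 in D16, while Slc9a4, of the same family, read 10 in D351 and was dim in D16. Of the sodium and calcium exchangers, Slc8a1 of the heart was dim in D351 and at 6.7 in D16, and Slc8a3 was at 7.4 in D351 and dim in D16. Slc17a1 read 6.2 in D351 and 6.7 in D16. Slc4a10, Slc9a2, Slc9b1, Slc12a8, Slc24a3, Slc24a4 and Slc26a3 were dim in both clones.

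Of 7 carriers of metal ions, 3 were measured, and all 3 are zinc importers of the Slc39 family. Slc39a3 was at 111 in D351 and 121.5 in D16, and Slc39a10 at 48.4 in D351 and 42.9 in D16, both close to even. Slc39a4, the importer that takes zinc from the diet in the gut, read 20.8 in D351 and was dim at 3.3 in D16. It was at least 3.25-fold higher in D351, but its value lies at the 75th percentile, so that the bound is 1.00-fold with the floor there. Its only probe set is marked. The zinc exporters Slc30a2, Slc30a6 and Slc30a10 were dim in both clones, as was Slc39a12.

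Sugar and nucleoside carriers were mostly below the floor. Of 4 sugar and polyol carriers only Slc2a5, the fructose transporter, was measured, at 10.3 in D351 and 10.1 in D16. Another of its probe sets was dim in D351 and read 10.5 in D16. The glucose transporter of neurons Slc2a3, the myo-inositol transporter Slc2a13 and Slc5a9 were dim in both clones. Of 4 nucleoside and nucleotide carriers, Slc28a1, which concentrates pyrimidine nucleosides, read 18.8 in D351 and 10.8 in D16. Slc43a3, a carrier of purine nucleobases, was dim in D351 and at 9.4 in D16. The vesicular nucleotide transporter Slc17a9 and Slc29a4 were dim in both clones. None of these measured genes passed 2-fold.

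All 10 genes of the Slc35 family that were grouped by name as nucleotide sugar carriers were measured, and 9 of them in both clones. Their median log2 ratio was -0.30, with 4 above 0 and 6 below, and with the scaling to the hybridization controls it was 0.39. Slc35a3, which brings UDP-N-acetylglucosamine into the Golgi apparatus, read 28 in D351 and 50.3 in D16. It was 1.80-fold lower in D351, and a second probe set at 9.1 in D351 and 17 in D16 agreed in direction and size. Slc35b4, a carrier of UDP-xylose and UDP-N-acetylglucosamine, was close to even by both of its probe sets, with 114.7 in D351 and 95.9 in D16 by 1, and 38.7 in D351 and 33.1 in D16 by the other. Slc35d1, whose loss in mice impairs cartilage glycan synthesis, was at 56.2 in D351 and 80.8 in D16. Slc35b2, which supplies the sulfate donor for glycans, read 33.9 in D351 and 38.7 in D16.

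The exception was Slc35a4, of the same family, at 19.7 in D351 and dim at 3.9 in D16. This is at least 3.08-fold higher in D351 by a marked probe set, and with the floor at 20.7 it was dim in both clones. Slc35a5 read 20 in D351 and 14.2 in D16. Slc35c2, at 16.7 in D351 and 23.6 in D16, and Slc35d3, at 15.8 in D351 and 23.4 in D16, were 1.41-fold and 1.48-fold lower in D351. Both were read by marked probe sets, and the other probe sets of Slc35c2 were dim in both clones. Slc35d2 was even at 21.2 in D351 and 20.7 in D16. Slc35e2 gave log2 ratios of -0.42 and -0.46 by its 2 probe sets, both close to the floor.

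Mitochondrial carriers of the Slc25 family lay in both directions, with 9 of 11 measured. Of their log2 ratios 5 were above 0 and 4 below, with a median of 0.09. It was 0.48 with the scaling to the hybridization controls and 0.37 with the floor at the 25th percentile. Only 1 gene passed 2-fold (11.1%, against 20.5% of all measured genes). The aspartate and glutamate carriers of the malate shuttle differed in direction. Slc25a12 read 94.3 in D351 and 79.5 in D16, whereas its relative Slc25a13 was dim in D351 and read 12.7 in D16, at least 1.98-fold lower in D351. Slc25a37, known as mitoferrin, imports iron for haem and iron-sulfur cluster synthesis. It was dim at 6.3 in D351 and read 13.1 in D16, at least 2.05-fold lower in D351, and with the floor at 20.7 it was dim in both clones. Its log2 ratio was -0.96 with lowess centring, -0.62 with a pseudocount and -0.36 with the scaling to the hybridization controls. The gene passed 2-fold in 5 of the 8 other settings in which it was measured.

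Slc25a33, which carries pyrimidine nucleotides into mitochondria, stood at 32.8 in D351 and 54.4 in D16, 1.66-fold lower in D351. Towards D351 lay Slc25a53 (60.5 in D351 and 39.2 in D16) and Slc25a16 (52.7 in D351 and 34.8 in D16), 1.54-fold and 1.51-fold higher, of which Slc25a53 has another probe set that was dim in both clones. Slc25a29, a carrier of basic amino acids, was close to even at 29.7 in D351 and 34.5 in D16. The phosphate carrier Slc25a3 was seen near background only, at 9 in D351 and 2.9 in D16 by a marked probe set, and Slc25a48 was at 6.8 in D351 and dim in D16. Slc25a41 and Slc25a51, the importer of NAD, were dim in both clones.

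Among carriers of organic ions and vitamins 9 of 17 were measured, and their median log2 ratio was -0.29, or 0.40 with the scaling to the hybridization controls. Slc19a2, the thiamine transporter, was at 368.2 in D351 and 282.1 in D16, and its relative Slc19a3 was dim in D351 and read 7.8 in D16. Another probe set of Slc19a3 was dim in both clones. Slc16a9, of the monocarboxylate family, read 103.9 in D351 and 55.1 in D16, which is 1.89-fold higher in D351. Slc16a11 was at 21.9 in D351 and 27.3 in D16. Slc22a18, an imprinted gene, stood at 131.9 in D351 and 95.9 in D16, a 1.38-fold difference. The kidney carrier Slc22a8 was at 19.4 in D351 and 23.7 in D16, and the carnitine carrier Slc22a21 at 11.5 in D351 and 12.1 in D16. Another probe set of Slc22a21 was dim in both clones. The other 8 were dim in both clones: Slc16a13, the sialic acid exporter Slc17a5, Slc22a4, Slc22a14, Slc22a15, Slc22a30, Slc23a3 and the riboflavin transporter Slc52a3.

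The urea transporters gave the widest disagreement between probe sets. Slc14a1, the urea transporter of red blood cells and vessels of the kidney medulla, read 6.6 in D351 and 45.4 in D16 by a marked probe set, 6.88-fold lower in D351. Its unmarked probe set read 14.3 in both clones. The difference therefore rests on 1 of 2 readings of this gene. Slc14a2, the urea transporter of kidney tubules, was at 34.4 in D351 and 45.4 in D16.

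Slc35f1 had the largest difference of all Slc genes. It was dim at 1.2 in D351 and read 114.8 in D16, at least 17.9-fold lower in D351, a bound that the floor of 20.7 reduced to 5.55-fold. Its substrate is not settled, and it is known for expression in brain. It passed 2-fold under each of the 9 other settings of scaling, floor and probe sets. It has 1 probe set, without a mark. Of its relatives by name, Slc35f6 was at 12.3 in D351 and 23.2 in D16, 1.89-fold lower in D351, and Slc35f4 was dim in both clones. Slc49a4, a protein of the lysosomal membrane, was at 82.3 in D351 and 42.3 in D16, 1.95-fold higher in D351. It stood just under 2-fold, with both values above the range of the negative controls.

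The smaller groups held few readable genes. Of 5 carriers of neurotransmitters, choline and osmolytes only the vesicular monoamine transporter Slc18a1 was measured, at 10.2 in D351 and 16.9 in D16, while Slc6a16 and Slc44a1, Slc44a3 and Slc44a4 of the choline carrier family were dim in both clones. Slc51a, a chain of the bile acid exporter, was dim in D351 and at 9.9 in D16. The symbols also take in 3 genes that do not encode transporters. Slc9a3r2, a scaffold protein that binds sodium and proton exchangers, read 53.8 in D351 and 37.3 in D16 by 1 probe set and 23 in D351 and 7.2 in D16 by another. The second, which has no mark, is past 2-fold towards D351. The pseudogene Slc2a4rg-ps read 10 in D351 and was dim in D16, and Slc7a6os was dim in both clones. Without these 3 genes, 63 measured carriers had a median log2 ratio of -0.13, and the counts past 2-fold were 4 towards D351 and 5 towards D16.

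**Figure D3:**
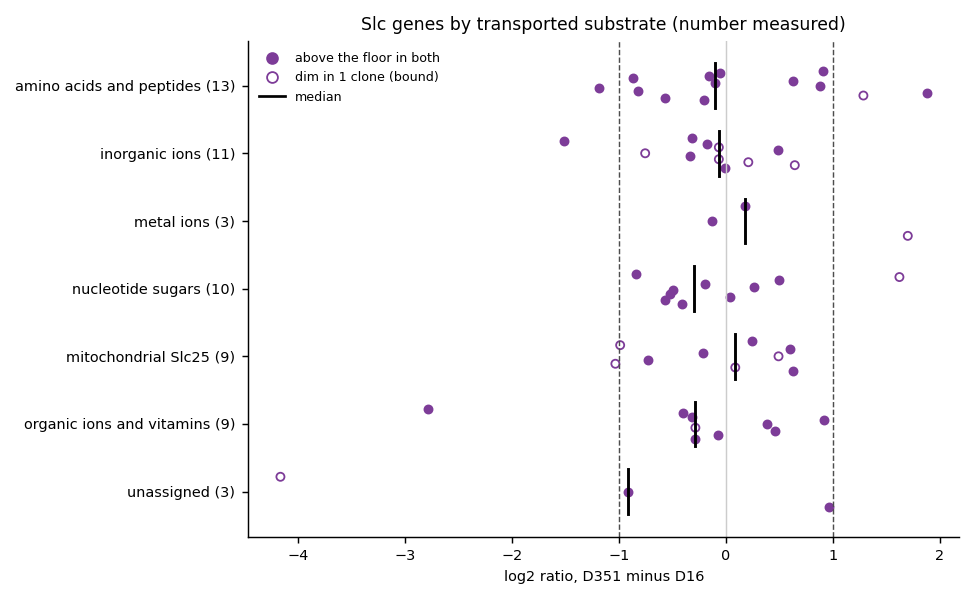
Log2 ratios (D351 minus D16) of the Slc genes in the 7 groups with at least 3 measured genes, 1 point per gene, with the number measured in brackets. Black bars mark the group medians, open points are lower bounds and dashed lines mark 2-fold; the medians of all groups but the unassigned one, at -0.92 over 3 genes, lie between -0.30 and 0.17.

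Several genes were read by more than 1 probe set. Of 21 Slc genes with more than 1 probe set, 8 had at least 2 that were measured, 9 had exactly 1 and 4 had none. Over the 8, the probe sets had the same sign in 5 genes, and they differed by 0.5 or less on the log2 scale in 4, namely Slc35b4, Slc35e2, Slc1a5 and Slc35a3. No pair was built on the same sequence accession. The median difference was 0.40 and the largest 2.78, for Slc14a1. The same was done for all 409 genes with a pair of probe sets above the floor in both clones. The differences in log2 ratio within these pairs gave an SD of 0.67 per probe set. Of the 9 Slc genes past 2-fold only Slc14a1 had a second measured probe set.

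**Figure D4:**
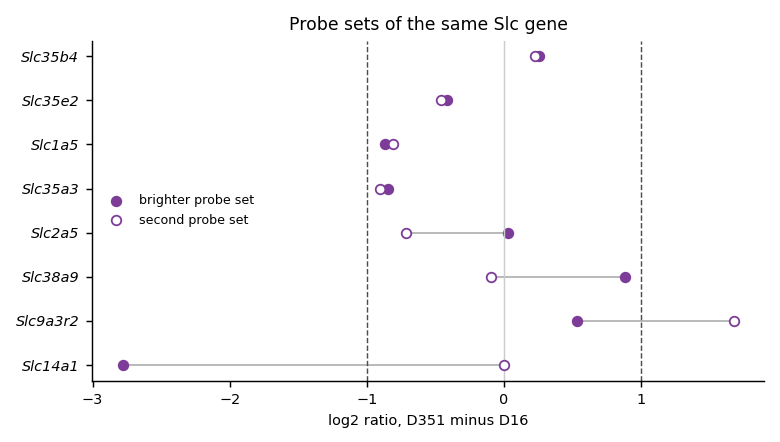
Log2 ratios (D351 minus D16) of the 2 brightest measured probe sets of the 8 Slc genes that have them, ordered by their difference, with dashed lines at 2-fold. The pairs of Slc35b4, Slc35e2, Slc1a5 and Slc35a3 nearly coincide, and that of Slc14a1 spans 2.78.

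Pumps and carriers outside the Slc families were read on the same arrays. Over all measured genes, 20.5% passed 2-fold in either direction, 10.3% towards D351 and 10.2% towards D16. Of 14 measured ATP-driven ion pump genes 1 passed 2-fold, with a median log2 ratio of -0.02. The median was 0.62 with the scaling to the hybridization controls and -0.25 over the 6 genes with unmarked probe sets. The gene past 2-fold was Atp6v1h, a subunit of the proton pump of lysosomes, at 61.4 in D351 and 15.8 in D16, 3.89-fold higher in D351. Its only probe set is marked. Of 13 measured ABC transporter genes, 10 had a log2 ratio below 0, with a median of -0.45, and of 0.25 with the scaling to the hybridization controls. Only Abca8b passed 2-fold, dim in D351 and at 21.6 in D16, at least 3.38-fold lower in D351. Of 3 measured phospholipid flippases Atp10b was at least 3.03-fold higher in D351, at 19.4 in D351 and dim in D16, while another probe set was dim in both clones. Of 2 organic anion carriers of the Slco family Slco6b1 was at least 3.34-fold lower in D351, dim in D351 and at 21.4 in D16, by a marked probe set. Of 8 other carriers with names outside the Slc stem, 2 passed 2-fold towards D16. Tusc3, a subunit of the complex that attaches N-glycans, was dim in D351 and read 14.5 in D16. Flvcr1, known as a haem exporter, was dim in D351 and read 13.2 in D16, while its other probe set read 7.8 in D351 and was dim in D16. With the floor at 20.7 none of Abca8b, Atp10b, Slco6b1, Tusc3 and Flvcr1 passed 2-fold: the bounds were 1.04-fold for Abca8b and 1.03-fold for Slco6b1, and the other 3 genes were dim in both clones. Atp6v1h kept a bound of 2.97-fold. The only aquaporin was dim in both clones.

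Enzymes that use the transported substrates followed. Of all measured genes, 20.5% passed 2-fold in either direction. Of 11 measured genes for amino acid synthesis and the response to amino acid shortage, only Shmt1, an enzyme of serine and glycine metabolism, passed 2-fold. It read 17.9 in D351 and 59.6 in D16, 3.33-fold lower in D351, and its only probe set is marked. The median of this list was -0.36, and 0.30 with the scaling to the hybridization controls. Of 16 measured genes of nucleotide synthesis and salvage, 3 were at least 2-fold lower in D351, a direction that held 10.2% of all measured genes. The median was -0.28, and 0.34 with the scaling to the hybridization controls. Dut, the dUTPase, read 8.6 in D351 and 49.9 in D16, and kept a bound of 2.41-fold with the floor at 20.7. Tk1, the thymidine kinase of dividing cells, read 114.2 in D351 and 275.7 in D16 by a marked probe set, 2.41-fold lower in D351, while its brightest unmarked probe set read 22.1 in D351 and 26 in D16. Ampd2, an AMP deaminase, was at 7.4 in D351 and 20.9 in D16 by a marked probe set, and its bound was 1.01-fold with the floor at 20.7. Its other probe sets were dim in both clones. Of 7 measured genes of glycolysis and sugar phosphates, Pfkfb2 was 2.05-fold higher in D351 (30.2 in D351 and 14.7 in D16, with a bound of 1.46-fold at the floor of 20.7) and Tigar 3.32-fold lower (17.1 in D351 and 56.8 in D16).

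Among 10 measured genes of zinc, iron and copper handling, 2 passed 2-fold, both towards D16, where the share over all measured genes was 10.2%. Mtf1, the transcription factor that senses zinc, was dim in D351 and read 32.6 in D16 by a marked probe set, at least 5.09-fold lower in D351. Its other probe set was dim in D351 and read 18.2 in D16. The floor of 20.7 left a bound of 1.57-fold. Scara5, a ferritin receptor, was dim in D351 and at 163.7 in D16, at least 25.6-fold lower in D351, or 7.91-fold with that floor. Its other probe set was dim in both clones. Fth1, the heavy chain of ferritin, did not pass 2-fold, at 1457 in D351 and 2529 in D16.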

How the data were processed

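The authors deposited 1 linear intensity per probe set for each of the 2 arrays. How they were made is not given in the sources used here. The mean after leaving out the lowest and highest 2% of values was 19.993 in D351 and 19.993 in D16. By that measure the deposited arrays were on a common scale. The deposited medians were 6.2 in D351 and 6.5 in D16. No value was below 0 and 4 values of D351 were 0. Of 11934 probe sets, 66 controls were set aside. Gene names came from the platform annotation (7717 probe sets with 1 gene, 150 with several, 4001 unnamed here), and the RefSeq genes of GRCm38.p6 held all 105 Slc identifiers, with 0 symbols changed. Substrate classes follow Slc family names. The text names every Slc gene past 2-fold, the 3 with the highest mean per class and those with repeat probe sets, and from each other list up to 2 past 2-fold each way; further Slc genes, Fth1, Tk1 and the marker genes were added after their values were seen. The members and lists were chosen with earlier results of these data known. The procedure was tested on simulated arrays. Python 3.11.15, numpy 2.4.6, pandas 2.3.3, statsmodels 0.14.6 and matplotlib 3.10.9 were used. Alternatives were 4 scalings, 3 treatments of dim values, unmarked probe sets, probe set means and a 3-fold rule.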

Additional observations from a re-analysis of the deposited data

How the results depend on the processing

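The Slc counts depended mainly on the floor and on the scaling. Scaled to the hybridization controls, 17 Slc genes passed 2-fold towards D351 and 2 towards D16 (29.7%, against 32.1% of all). The Slc median was 0.53. The class medians were 0.59 for amino acids, 0.45 for inorganic ions, 0.87 for metal ions and 0.39 for nucleotide sugars. They were 0.48 for Slc25, 0.40 for organic ions and -0.22 for the unassigned genes. The floor at the 25th percentile, 1.8, gave 11 towards D351 and 13 towards D16 among 93 measured genes (25.8%, against 29.9% of all), with a Slc25 median of 0.37. The floor at the 75th percentile gave 0 and 2 among 37 (5.41%, against 16.2% of all), where the genes towards D16 were Slc14a1 and Slc35f1, with medians of -0.16 for the unassigned genes and -0.32 for inorganic ions. With unmarked probe sets the amino acid median was 0.62 over 9 genes, and the log2 ratio of Slc14a1 was 0. The 3-fold rule left 3 towards D351 and 2 towards D16 (7.69%, against 8.13% of all). Repeat probe sets had the same sign in 8 of 18 genes with the lower floor and 3 of 3 with the higher, settings chosen after seeing the data. Quantile normalization, lowess centring (span 0.3), equal medians, a pseudocount of 6.4 and probe set means kept both counts within 1.5 times. A class median counted as moved beyond the probe set SD of 0.67 over the root of its number of genes. No paired analysis was possible because each clone has 1 array, so no array could be left out either.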
